A study of Mus musculus with 6 samples.

Results

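The antioxidant, thioredoxin and glutathione genes are the protein-coding genes whose symbols name the enzymes that remove superoxide and peroxides, the small proteins that pass electrons to them, and the enzymes that make, recycle and use glutathione. They were chosen by a rule on the symbol, set with earlier results of these data known, and 71 of the 25631 genes in the table met it. RNA was sequenced from oocytes that were freed by puncture from large antral follicles. The mice of both groups were ICR females aged 14 months, and all had been injected with eCG (equine chorionic gonadotropin), which stimulates the growth of follicles. In the aminophylline group (n = 3 libraries) the mice drank water with 4.0 mM aminophylline, a theophylline derivative that inhibits phosphodiesterases, for 1 week and then water only for 3 weeks. The control group (n = 3 libraries) had water without the drug, and its labels call it aged and untreated. The question asked of these genes was whether their RNA in oocytes of aged mice differed after oral aminophylline. How many mice and oocytes went into a library is not given in the sources used here, so the p-values measure the spread between these libraries only, which may be technical.

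Superoxide dismutases turn superoxide into hydrogen peroxide, and catalase, the peroxiredoxins and the glutathione peroxidases then break the peroxide down. Peroxiredoxins are reset by thioredoxin, which is recharged by thioredoxin reductase, while glutathione is recharged by glutathione reductase, and both reductases draw on NADPH. Glutaredoxins move glutathione on and off protein thiols, glutathione S-transferases join glutathione to electrophiles, and methionine sulfoxide reductases repair oxidized methionine. The transcription factor NRF2, encoded by Nfe2l2 and held down by KEAP1, drives many of these genes through short antioxidant response elements. In the oocyte these systems are known for protecting mitochondria and the spindle during the long arrest before ovulation.

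The libraries held 14112341 (control library 2) to 33641283 reads (control library 1), as recovered from the deposited FPKM, which are fragments counted on a gene, scaled by transcript length and by library total. All 13 oocyte markers were present, with a summed level of 10964 to 16612 FPKM in the control libraries and 13483 to 15728 FPKM in the aminophylline libraries. The 13 granulosa and cumulus markers summed to 18.8 to 27.1 FPKM over all 6 libraries, with 4 of 13 passing the filter on low values. These 4 were Cyp19a1 (7.37 to 15.7 FPKM), Nr5a2 (4.43 to 8.53 FPKM), Cyp11a1 (1.81 to 3.35 FPKM) and Inha (0.417 to 1.66 FPKM). Fshr and Amh were at or below 0.27 FPKM. Control library 1 stood apart by its macrophage RNA. The 14 macrophage markers summed to 268 FPKM there and to 82.0 to 104 FPKM in the other 5 libraries, where C1qb alone made up 79.2 to 99.8 FPKM and C1qc was at 0 FPKM. Stromal, endothelial and erythrocyte markers together summed to 6.73 to 9.63 FPKM. In bulk libraries a smaller number of oocytes and less RNA per oocyte cannot be told apart.

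Sequences are shown for a pair of reasons. The first set concerns the pi-class glutathione S-transferases Gstp1 and Gstp2, since Gstp1 had the largest positive log2 fold change among the 50 tested members and the pair are nearly the same gene. Gstp1 lies at chr19:4035411-4037912 and Gstp2 at chr19:4040288-4042221, both on the minus strand of GRCm38.p6 (RefSeq). Their coding sequences of 630 bases (GENCODE M21, transcripts Gstp1-201 and Gstp2-201) differ at 12 bases and share a run of 300 identical bases. The first 60 coding bases hold 6 of these differences, in capitals:
Gstp1: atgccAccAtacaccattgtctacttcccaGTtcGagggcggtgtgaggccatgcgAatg
Gstp2: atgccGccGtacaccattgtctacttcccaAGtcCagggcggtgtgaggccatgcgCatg

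The second set shows matches to the core of the antioxidant response element, searched on both strands in the 250 bases before each transcript start that RefSeq (GRCm38.p6) lists for a gene, of which some genes have several, written on the strand where the motif reads TGA. The motif TGACNNNGC was found in 11 of the 62 members with a promoter sequence, or 17.7%, against 11.5% of all 27025 genes with one. Its relative TGAGNNNGC, searched after the letters of some promoters had been seen, was found in 12 of 62, or 19.4%, against 16.3%. The motifs differ at the fourth base, so the same bases of 1 strand cannot match both, although matches on opposite strands may overlap. Together they covered 20 of 62 members, or 32.3%, against 25.7% of all genes. The members shown are the most abundant one (Prdx1), the enzyme that restores it (Srxn1), the Gstp pair, and the abundant subunit of glutathione synthesis (Gclm), with the motif in capitals:
Prdx1, chr4:116685455-116685484, minus strand: ctacgggggaTGACTCAGCgctttccctgg
Srxn1, chr2:152105469-152105498, plus strand: aaattcacccTGAGTCAGCggccgggcgcg
Gstp1, chr19:4037967-4037996, minus strand: tccaacgtgtTGAGTCAGCatccggggcgg
Gstp2, chr19:4042291-4042320, minus strand: tccaacgtgtTGAGTCAGCatccggggcgg
Gclm, chr3:122245412-122245441, minus strand: tcgtgagagtTGACGGTGCgcccgggagcg
The Gstp1 and Gstp2 windows carry the same 30 bases, 74 and 89 bases before the start of each gene. Prdx1 and Srxn1 both carry a match, 133 and 45 bases before the start, and stand at opposite ends of the FPKM range given below. Srxn1 and Gstp1 each hold another TGAGNNNGC match that is not shown, 158 and 9 bases before the start. A match describes letters only, and no binding was measured here.

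The members as a set were abundant in these oocytes. Of the 71, 12 had a mean over the 6 libraries of at least 100 FPKM, which is 16.9% of them against 5.26% of the 17773 protein-coding genes. Another 23 lay between 10 and 100 FPKM, 14 between 1 and 10 FPKM, and 22 below 1 FPKM. Together they held 1.03% to 1.09% of each library's summed FPKM, and the 5 most abundant made up 61.0% to 64.9% of that.

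**Figure D1:**
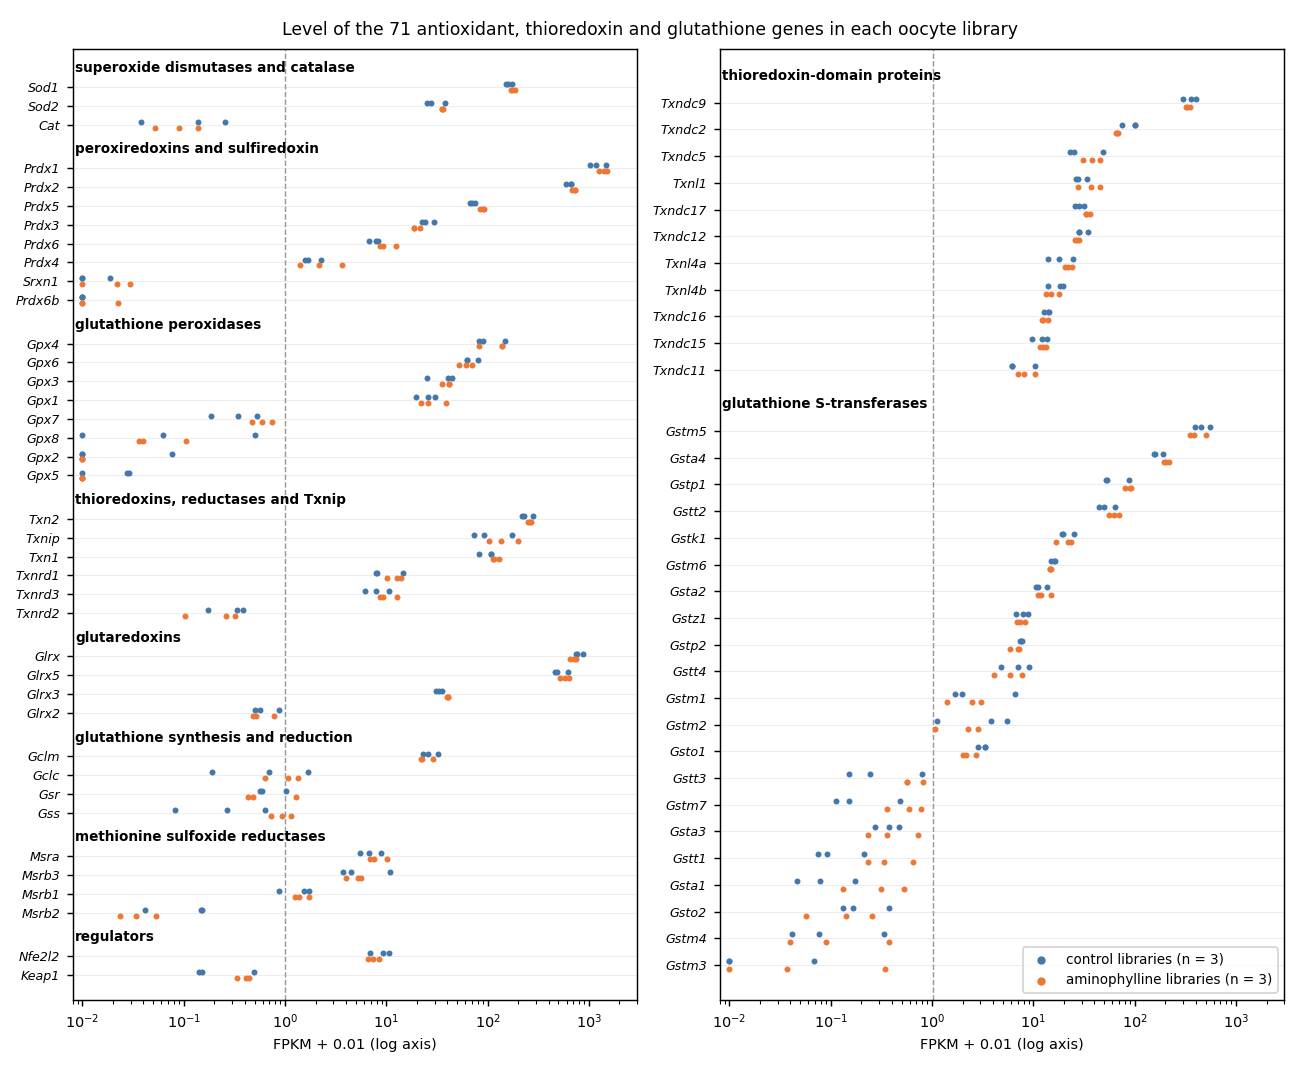
FPKM plus 0.01 on a log axis for each of the 71 members, grouped by role, with 1 point per library (3 control in blue, 3 aminophylline in orange) and a dashed line at 1 FPKM. Prdx1 reached 1499 FPKM while Srxn1 and Prdx6b sat at or near 0, and 19 members stayed under 1 FPKM in all libraries.

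For the comparison, 50 of the 71 members passed the filter (at least 1 FPKM in at least 3 of the 6 libraries), among 10340 genes tested. By limma on log2(FPKM + 1), 1 member (Gstp1) was higher in the aminophylline group at an unadjusted p under 0.05, where 4.41% of all tested genes were, and 1 member (Txndc2) was lower, where 2.84% of all tested genes were, so 2 of 50 passed beside 7.25% of all tested genes in either direction. At the added limit of a fold change over 1.5 there were 0 members on either side, against 2.08% of tested genes higher and 1.13% lower. After Benjamini-Hochberg adjustment over all tested genes limma called 0 members and 0 genes of any kind (0% in each direction), with a smallest adjusted p of 0.682 among the members and 0.455 among all genes. The voom alternative on recovered reads called the same 2 members at an unadjusted p under 0.05 and 0 after adjustment. Higher genes made up 60.8% of all unadjusted calls with the FPKM as deposited, 49.0% with a common sum per library, 39.7% with quantile normalization and 35.9% with median centring, and the members higher and lower were then 1 and 1, 2 (Gstp1 and Prdx1) and 1, and 0 and 1. The share of members past an unadjusted p of 0.05 in either direction was 4%, and it lay below the share of all tested genes here and in the alternatives except for the fit without the filter (9.86% of members, 5.48% of all genes), the unmoderated model (10% and 6.55%) and the fit without control library 2 (16% and 15.6%). With the replicate number as a block, the higher members were 2 (Gstp1 and Txnip), against a background of 9.88%, and the lower member was 1 (Txndc2), against 4.3%, or 14.2% of all tested genes in either direction. That fit gave an adjusted p under 0.05 to 0.455% of tested genes and to 0 members.

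Signs were mixed. The log2 fold change was positive for 30 of the 50 tested members and negative for 20, so 60% were positive beside 64.8% of all tested genes, with a median of 0.14 beside 0.10 over all tested genes. Since the deposited FPKM put the middle of all genes slightly above 0, small positive values of single members lie close to that shift. Every aminophylline library exceeded every control in 7 of 50 tested members (Prdx2, Prdx5, Prdx6, Txn1, Txndc17, Glrx3, Gsta4), beside 7.51% of tested genes. Every aminophylline library lay below every control in 5 of 50 (Prdx3, Txndc2, Txndc12, Gstp2, Gsto1), beside 4.96%. In each direction the share of members was larger than that of all tested genes, and this excess was not tested. With 3 libraries a side the two-sided exact permutation test cannot give a p below 0.1.

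**Figure D2:**
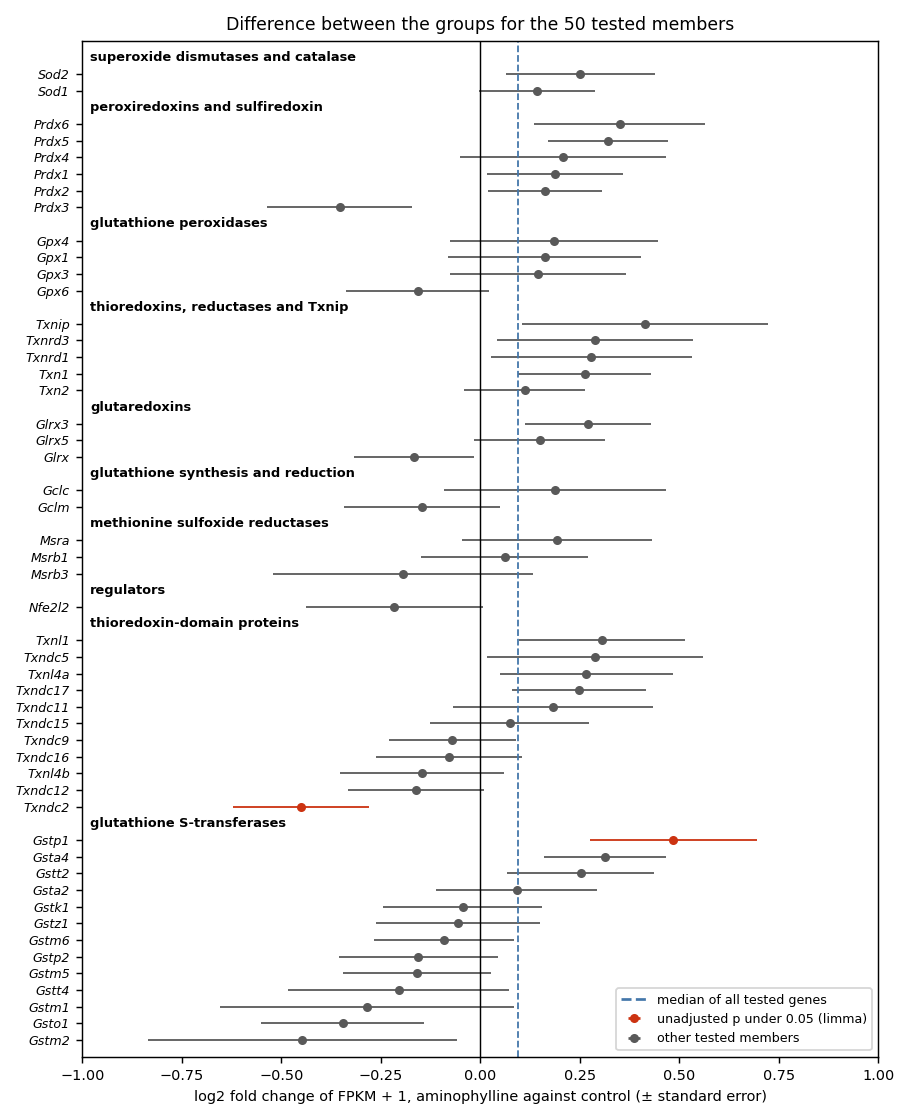
Log2 fold change of FPKM + 1, aminophylline against control, with its standard error (limma, n = 3 libraries a group) for the 50 tested members by role. Gstp1 (0.49) and Txndc2 (-0.45), in red, are the only members with an unadjusted p under 0.05, and the dashed line marks the median of all tested genes, 0.10.

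Of the first line of defence, the superoxide dismutases were present and catalase was almost not. Sod1, the cytosolic copper and zinc enzyme, had 160, 151 and 172 FPKM in the control libraries and 172, 187 and 175 FPKM in the aminophylline libraries. Sod2, the manganese enzyme of the mitochondrial matrix, had 27.7, 37.6 and 25.2 FPKM in control and 36.0, 35.4 and 35.2 FPKM with aminophylline. Both sets overlapped with control, and the differences did not pass the test (Sod1 log2 fold change 0.14, Sod2 0.25, limma). Leaving out control library 2, the highest of the controls for Sod2, moved its log2 fold change to 0.42, with an unadjusted p of 0.0253. Cat, the catalase of peroxisomes, rested on 11, 1 and 20 reads in the control libraries and 3, 5 and 10 reads in the aminophylline libraries, or at most 0.25 FPKM. It was below the filter, so no difference was tested.

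The peroxiredoxins carried the largest part of the antioxidant RNA. Prdx1, a cytosolic thiol peroxidase at chr4:116685599-116700000, had 1175, 1457 and 1033 FPKM in control and 1499, 1399 and 1245 FPKM with aminophylline, and by its mean it ranked 40 among the protein-coding genes. Prdx2, its close cytosolic relative, had 657, 669 and 589 FPKM in control and 728, 679 and 736 FPKM with aminophylline. The Prdx1 libraries overlapped between groups while those of Prdx2 did not, and neither difference passed the test (log2 fold change 0.19 and 0.16). The Prdx1 value was 0.32 without control library 2, with an unadjusted p of 0.0464 by limma, and 0.07 at its lowest over the alternatives. Prdx1 was 1.69 to 2.18 times as abundant per length as Prdx2 in each library.

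The mitochondrial peroxiredoxins had differences of opposite sign, neither of which passed the test. Prdx5, found in mitochondria, peroxisomes and cytosol, had 66.8, 75.7 and 69.7 FPKM in control and 83.6, 91.5 and 90.3 FPKM with aminophylline. Its groups did not overlap, and the log2 fold change of 0.32 (SE 0.151) had an unadjusted p of 0.0572 and an adjusted p of 0.688 by limma. Prdx3, the peroxiredoxin of the mitochondrial matrix, went the other way, with 29.5, 24.3 and 22.5 FPKM in control and 18.8, 21.4 and 18.6 FPKM with aminophylline. Its log2 fold change was -0.35 (SE 0.182, limma unadjusted p 0.0777), and its highest value was in control library 1, the one with macrophage RNA, without which the log2 fold change was -0.25 and the groups still did not overlap. Prdx5 overlaps Trmt112 on the opposite strand, a gene at 96.5 FPKM. The strandedness of the counting is not given in the sources used here, so reads from shared bases could count for either gene. How many exon bases they share was not measured. Other members also overlap genes on the opposite strand, among them Txndc5 with Bmp6 (22.6 FPKM) and Prdx2 with Rnaseh2a (13.8 FPKM).

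The remaining peroxiredoxins were low. Prdx6, a peroxidase that uses glutathione, had 7.85, 8.34 and 6.70 FPKM in control and 9.35, 12.3 and 8.56 FPKM with aminophylline, again without overlap (log2 fold change 0.35, limma unadjusted p 0.13). Prdx4, the peroxiredoxin of the endoplasmic reticulum, ranged from 1.38 to 3.61 FPKM with overlapping groups. Prdx6b was above 0 in 1 library only. Srxn1, the sulfiredoxin that restores over-oxidized peroxiredoxins and a textbook NRF2 target, gave 1, 0 and 0 reads in control and 0, 1 and 2 reads with aminophylline, all below the floor of 3 reads. At these depths Srxn1 was not detectable in either group, beside at least 1033 FPKM of Prdx1, a peroxiredoxin it serves.

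**Figure D3:**
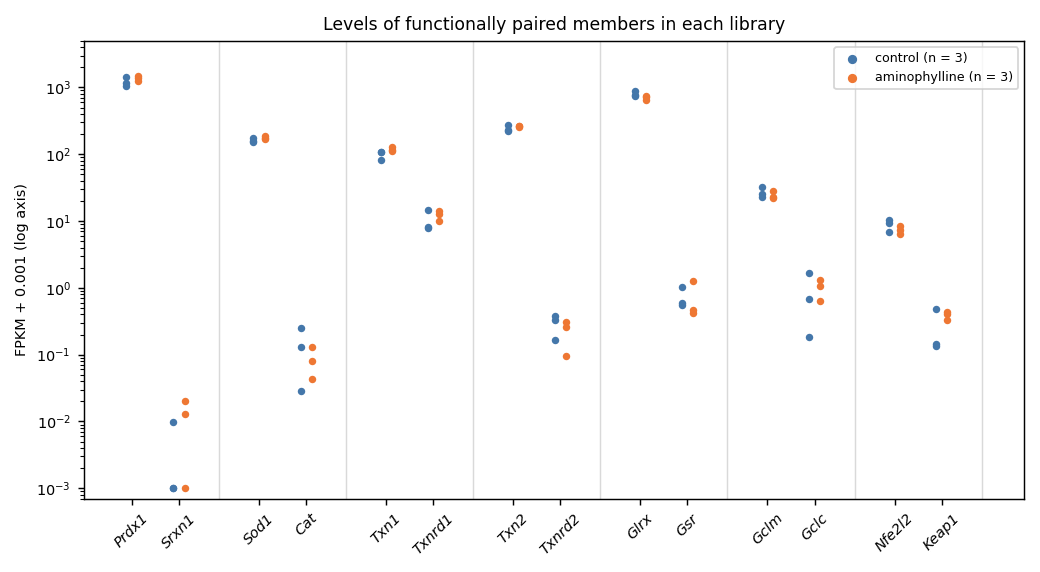
FPKM plus 0.001 on a log axis for members that act on each other or in sequence, 1 point per library (control blue, aminophylline orange, n = 3 each). In each pair the left gene exceeded the right one in all 6 libraries, by the least for Txn1 over Txnrd1 (5.66 to 13.4 times).

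Among the glutathione peroxidases, 4 of 8 were tested and 4 stayed under 1 FPKM in all libraries. Gpx4, which reduces phospholipid peroxides within membranes, was the most abundant, with 81.3, 147 and 89.5 FPKM in control and 139, 138 and 81.9 FPKM with aminophylline. Gpx6 had 51.9 to 79.8 FPKM, Gpx3, a secreted enzyme, 24.9 to 44.4 FPKM, and Gpx1, the main cytosolic enzyme, 19.5 to 38.8 FPKM. All 4 overlapped between the groups, with log2 fold changes from -0.16 to 0.18. Of the stretches of 100 bases in Gpx4 transcripts, 40.8% also occur in a pseudogene copy, so its reads could be split. Gpx8 rested on 23 reads in control library 1 and on 0 to 4 reads in each other library, the same library in which the macrophage markers were high, and their part in it was not tested. Gpx7 had 0.175 to 0.727 FPKM, Gpx5 had 1 read in each of 2 control libraries, and Gpx2 was above 0 in 1 library.

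All 5 tested genes among the thioredoxins, their reductases and Txnip had a positive log2 fold change, and 0 passed the test. Their median was 0.28, beside 0.10 for all tested genes, of which 64.8% were positive. All 5 signs stayed positive with a common sum, quantile normalization and median centring of the libraries. The medians were then 0.24, 0.21 and 0.20, beside 0.06, 0.01 and 0.01 for all tested genes. Txn2, the mitochondrial thioredoxin, had 219, 277 and 230 FPKM in control and 260, 269 and 252 FPKM with aminophylline, and Txn1, the cytosolic one, had 107, 109 and 81.9 FPKM and 115, 128 and 112 FPKM. The groups overlapped for Txn2 and not for Txn1, whose log2 fold change was 0.26 (SE 0.167, limma unadjusted p 0.145). The reductases were much lower. Txnrd1, the cytosolic reductase, had 7.98, 8.15 and 14.5 FPKM in control and 10.1, 12.6 and 14.03 FPKM with aminophylline, and Txnrd3, a thioredoxin and glutathione reductase best known from testis, had 6.10 to 12.7 FPKM. Txnrd2, the mitochondrial reductase, rested on 5 to 21 reads a library and never passed 0.372 FPKM, so Txn2 exceeded it by 669 to 2798 times.

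Txnip, the thioredoxin-interacting protein that binds reduced thioredoxin and restrains glucose uptake, varied between the libraries of both groups. It had 92.7, 72.7 and 172 FPKM in control libraries 1 to 3 and 103, 136 and 198 FPKM in aminophylline libraries 1 to 3. The third library was the highest of each group, and each aminophylline library exceeded the control library of the same number, while the groups overlapped. The labels state no pairing of these libraries. The log2 fold change of 0.41 (SE 0.31) had an unadjusted p of 0.209 in limma, and with the replicate block an unadjusted p of 0.0286 and an adjusted p of 0.289. When control library 3 was left out, Txnip had a log2 fold change of 0.77 and an unadjusted p of 0.0108 in limma. Txndc5 and Txnrd1, which were also highest in control library 3 within the control group, likewise passed an unadjusted p of 0.05 only when that library was left out, among the alternatives run.

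The thioredoxin-domain proteins were all 11 above 1 FPKM in every library. Txndc9, which works with the cytosolic chaperonin, led with 407, 358 and 299 FPKM in control and 355, 329 and 322 FPKM with aminophylline. Txndc2, a thioredoxin best known from sperm and encoded at chr17:65637505-65648874 on the minus strand, had 101, 74.1 and 101 FPKM in control (92.3 ± 15.7, SD, n = 3) and 65.1, 66.5 and 68.1 FPKM with aminophylline (66.6 ± 1.52, SD, n = 3). The 3 treated libraries lay together below all controls, and the difference of -0.45 on the log2 scale (SE 0.171) had an unadjusted p of 0.0235 and an adjusted p of 0.682 by limma. It shared 0% of its 100-base stretches with other genes. Of the 6 fits that each left out a library, only that without control library 2 kept the unadjusted p under 0.05 (log2 fold change -0.60, p 0.0016 by limma), and in the others the log2 fold change lay between -0.47 and -0.37.

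Of the other thioredoxin-domain members, 0 passed the test. Txndc12, a thiol oxidoreductase of the endoplasmic reticulum, had 28.3, 28.0 and 34.6 FPKM in control and 26.8, 27.9 and 25.9 FPKM with aminophylline, and Txndc17, a cytosolic reductase, had 25.9, 28.0 and 31.7 FPKM and 32.8, 32.8 and 36.5 FPKM. Neither group pair overlapped, and the log2 fold changes of -0.16 and 0.25 did not pass the test. Txndc5, a protein disulfide isomerase, had 22.9, 25.4 and 49.1 FPKM in control and 31.0, 38.2 and 45.1 FPKM with aminophylline. The remaining 6 (Txnl1, Txnl4a, Txnl4b, Txndc11, Txndc15, Txndc16) ranged from 6.11 FPKM for Txndc11 to 45.5 FPKM for Txnl1, all with overlapping groups.

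The glutaredoxins were unequal. Glrx, the cytosolic glutaredoxin, had 872, 742 and 759 FPKM in control and 751, 718 and 644 FPKM with aminophylline, and Glrx5, which hands on iron-sulfur clusters in mitochondria, had 464, 615 and 485 FPKM and 630, 513 and 584 FPKM. Both overlapped, with log2 fold changes of -0.17 and 0.15. Glrx3, another iron-sulfur cluster carrier, had 31.2, 33.2 and 35.0 FPKM in control and 40.3, 40.7 and 39.5 FPKM with aminophylline. These 2 sets of 3 were tight and separate (log2 fold change 0.27, SE 0.158, limma unadjusted p 0.115), and 11.9% of the 100-base stretches of Glrx3 also occur in a pseudogene copy. Glrx2, the mitochondrial glutaredoxin, stayed between 0.472 and 0.87 FPKM.

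The enzymes that make and recharge glutathione were scarce, except for 1 subunit. Gclm, the modifier subunit of glutamate-cysteine ligase, which catalyses the rate-limiting step, had 23.0, 25.8 and 32.7 FPKM in control and 22.7, 21.8 and 28.6 FPKM with aminophylline. Gclc, its catalytic subunit, had 0.678, 0.182 and 1.66 FPKM and 0.626, 1.06 and 1.32 FPKM, so the modifier exceeded the catalytic subunit 19.7 to 142 times. Neither difference passed the test (log2 fold change -0.15 for Gclm and 0.19 for Gclc, the latter -0.09 without control library 2). Gss, glutathione synthetase, rested on 17, 2 and 39 reads in control (0.254, 0.0714 and 0.617 FPKM) and on 63, 35 and 56 reads with aminophylline (1.12, 0.711 and 0.922 FPKM). Its groups did not overlap, but it was below the filter and entered only the alternative without a filter, where its log2 fold change was 0.56 (limma unadjusted p 0.0241, adjusted p 0.836). Gsr, glutathione reductase, had 0.556, 0.583 and 1.01 FPKM and 0.424, 0.468 and 1.28 FPKM and was also below it.

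The glutathione S-transferases were the largest family, with 21 members of which 13 were tested. Of these 13, 4 had a positive and 9 a negative log2 fold change (median -0.09), while 64.8% of all tested genes were positive. The same split of 4 and 9 was found under each of the other scalings, with medians of -0.13 to -0.17. Gstm5, a mu-class enzyme known from testis and brain, led with 447, 548 and 389 FPKM in control and 502, 386 and 353 FPKM with aminophylline. Gsta4, the alpha-class enzyme that clears the lipid peroxidation product 4-hydroxynonenal, had 153, 188 and 157 FPKM in control and 195, 203 and 220 FPKM with aminophylline. The Gstm5 groups overlapped and the Gsta4 groups did not (log2 fold change -0.16 and 0.31, limma unadjusted p 0.413 and 0.0657).

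Gstp1, a pi-class enzyme, had 51.7, 87.5 and 53.7 FPKM in control (64.3 ± 20.1, SD, n = 3) and 90.7, 92.6 and 80.5 FPKM with aminophylline (87.9 ± 6.50, SD, n = 3). Control library 2 lay among the treated libraries, so the groups overlapped. The log2 fold change of 0.49 (SE 0.209) had an unadjusted p of 0.0408 and an adjusted p of 0.682 by limma. Leaving out control library 1 or 3 or aminophylline library 1 or 2 took the unadjusted p above 0.05 (log2 fold change 0.35 to 0.46), while leaving out control library 2 raised the log2 fold change to 0.73, with an unadjusted p of 0.000656. Gstp2 had 7.63, 7.54 and 7.40 FPKM in control and 7.11, 7.09 and 5.83 FPKM with aminophylline, without overlap and in the other direction (log2 fold change -0.16). The Gstp1 level was 6.77, 11.6 and 7.26 times that of Gstp2 in control and 12.8, 13.1 and 13.8 times with aminophylline. Of the 100-base stretches, 38.4% of those of Gstp1 and 42.2% of those of Gstp2 occur in another gene, so the split of reads between the pair whose coding sequences are printed above is uncertain.

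The other transferases were lower. Gstt2 had 44.5 to 69.4 FPKM, Gstk1 16.8 to 25.1 FPKM, Gstm6 14.5 to 16.4 FPKM and Gsta2 10.7 to 14.9 FPKM, each with overlapping groups. Gstz1, Gstt4, Gstm1 and Gstm2 ranged from 1.06 to 9.04 FPKM, with Gstm1 and Gstm2 both highest in control library 2 (6.51 and 5.50 FPKM). Gsto1, the omega-class enzyme, had 3.35, 3.31 and 2.80 FPKM in control and 2.67, 1.99 and 2.16 FPKM with aminophylline, without overlap (log2 fold change -0.35, limma unadjusted p 0.12). The 8 transferases not tested (Gsta1, Gsta3, Gstm3, Gstm4, Gstm7, Gsto2, Gstt1, Gstt3) stayed below 1 FPKM in all libraries. Of these, Gstt1 had 3, 1 and 7 reads in control and 10, 6 and 21 reads with aminophylline, and its FPKM did not overlap (log2 fold change 0.31 without the filter, limma unadjusted p 0.0375, adjusted p 0.836).

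**Figure D4:**
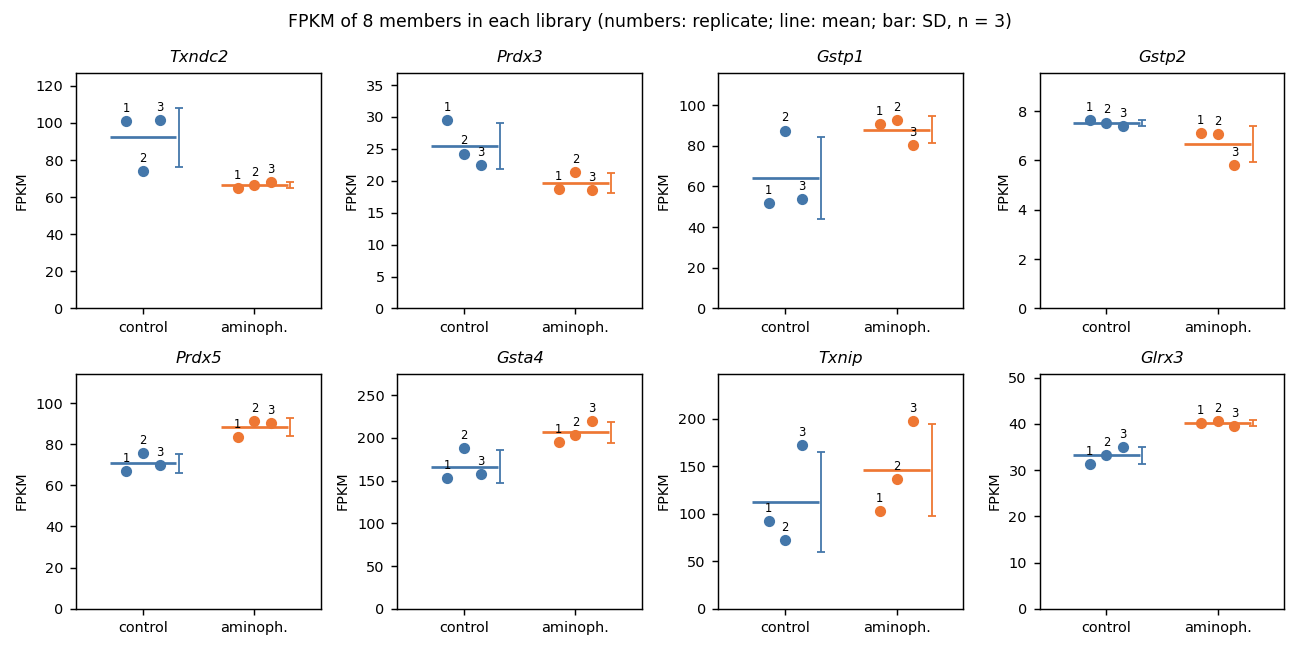
FPKM from 0 for 8 members in each library (points numbered by replicate, line at the mean, bar for the SD, n = 3). Txndc2, Prdx3 and Gstp2 lay lower and Prdx5, Gsta4 and Glrx3 higher in all aminophylline libraries, while Gstp1 overlapped through control library 2 and Txnip through control library 3.

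Of the repair enzymes and the regulators, 0 passed the test. Msra, which reduces the S form of methionine sulfoxide, had 5.50 to 10.1 FPKM, Msrb1 0.867 to 1.73 FPKM and Msrb3 3.71 to 10.8 FPKM, the last value in control library 3, and Msrb2 stayed at or below 0.141 FPKM. Nfe2l2 had 9.19, 6.87 and 10.5 FPKM in control and 7.31, 8.44 and 6.51 FPKM with aminophylline (log2 fold change -0.22, limma unadjusted p 0.351). Keap1 rested on 20, 9 and 69 reads in control and 54, 45 and 45 reads with aminophylline, at most 0.485 FPKM.

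Genes of the same pathways outside the set were read from 7 lists, beside a background of 4.41% of all tested genes higher and 2.84% lower at an unadjusted p under 0.05. Of 9 tested NRF2 partners and regulators, 0 passed an unadjusted p of 0.05 in limma, and of 12 tested NRF2 targets 1 did, the pentose phosphate enzyme Taldo1, with 42.7, 45.3 and 55.2 FPKM in control and 63.8, 69.4 and 61.7 FPKM with aminophylline (log2 fold change 0.44). Of 9 tested genes of NADPH supply, 1 was higher (Pgd, a pentose phosphate dehydrogenase, 1.08, 1.24 and 2.41 FPKM against 2.18, 3.50 and 4.06 FPKM) and 1 lower (Idh1, the cytosolic isocitrate dehydrogenase, 24.0, 16.4 and 29.0 FPKM against 13.3, 16.0 and 16.6 FPKM). Both overlapped between groups, while Taldo1 did not.

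Among 15 tested genes of glutathione precursors, turnover and use, 2 were higher and 0 lower. These were Ggct, a cyclotransferase of glutathione breakdown (281, 378 and 280 FPKM in control, 389, 395 and 413 FPKM with aminophylline), and Adh5, which removes formaldehyde bound to glutathione (109, 134 and 126 FPKM, and 151, 174 and 165 FPKM), both without overlap. Of 14 tested selenoprotein genes 1 was higher (Selenoh, log2 fold change 0.53), and of 11 other thiol and oxidant defence genes 1 was higher (Park7, log2 fold change 0.40). With the replicate block the last list had 3 higher genes (Park7, Nxn and Pdia6) and NADPH supply had 2 (Pgd and Mthfd1), against a background of 9.88% in that fit. Of the oxidant-producing enzymes only 2 of 12 were tested, and 0 passed. The list medians ran from -0.19 for the oxidant-producing enzymes to 0.17 for the NRF2 partners, beside 0.10 for all tested genes. In the reported limma comparison the list genes with an unadjusted p under 0.05 had an adjusted p of 0.682 to 0.684. For Nxn, Pdia6 and Mthfd1, called only with the block, it was 0.721, 0.696 and 0.706 in that comparison.

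Without control library 1, which held the macrophage RNA, limma gave 0 members higher and 1 lower at an unadjusted p under 0.05, the lower one being Gstm2 (log2 fold change -0.92, against -0.45 with all libraries and -0.06 with library weights), and it called neither Gstp1 nor Txndc2. In that fit 3.52% of all tested genes passed. Of the 50 tested members, 22 (44%) had their highest control value in control library 2, the shallowest one, 18 (36%) in control library 3 and 10 (20%) in control library 1. Of all tested genes 26.8%, 51.2% and 22.0% did. The highest aminophylline value was in library 1, 2 and 3 for 15 (30%), 17 (34%) and 18 (36%) of the members, beside 24.5%, 29.0% and 46.5% of all tested genes.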

How the data were processed

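The authors deposited FPKM values per gene, scaled by transcript length and library total, for 6 oocyte libraries. The submitters' processing notes name the build GRCm38 (mm10), while the aligner, the counting program and the strandedness are not given in the sources used here. Whole reads were recovered from the FPKM ratios between libraries, and 99.997% of values came out whole. Floors (3 reads) cover counting error only. FPKM were tested as log2(FPKM + 1) with limma 3.58.1 in R 4.3.3 (moderated variance with a trend, two-sided, Benjamini-Hochberg adjustment over 10340 genes), so fold changes of low genes are understated. Groups came from the labels. The labels number the replicates and state no pairing. The reported comparison was unpaired, and the replicate number entered as a block only in an alternative. Deviations of same-numbered libraries correlated at 0.138, 0.140 and 0.552. Differently numbered libraries were not set beside them, so these values cannot show whether the libraries are paired. The code was tested on simulated data with larger fold changes than those of the tested members in the reported comparison. That test bears on the code and not on the results given here. Members and lists were chosen with earlier results of these data known. Log2 fold changes are named for members with an unadjusted p under 0.05, the most abundant of each role and a list of central enzymes. Gsta4, Glrx3, Gsto1, Txndc17, Txndc12, Gstp2, Gstm2, Gss, Gstt1, Nxn, Pdia6 and Mthfd1 were added after their values were seen. The value of Glrx5 is also given outside these rules. Shared stretches and motifs were searched in GENCODE M21 and RefSeq. The alternatives are given with their values in the closing section.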

Additional observations from a re-analysis of the deposited data

How the results depend on the processing

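The count of members at an adjusted p under 0.05 stayed at 0 under all 16 alternatives. At an unadjusted p under 0.05, where 1 was higher and 1 lower, the higher count was 5 without the filter on low values, 2 with quantile normalization, 0 with median centring, 3 with the unmoderated linear model and 5 with library weights, and the lower count was 2 without the filter, with the unmoderated model and with library weights. Library weights gave 1 member higher at a fold over 1.5. The share of all tested genes at that limit is not given for this fit, so this count cannot be read against a background. Gstp1 was not among the higher members without the filter (p 0.067), with median centring (p 0.138) or with the unmoderated model (p 0.123, limma fits). Of all tested genes 5.48% passed in either direction without the filter, 8.46% with quantile normalization, 7.57% with median centring, 6.55% with the unmoderated model and 19.4% with library weights, beside 7.25% in the reported comparison. The cause of these moves was not tested. The replicate block, which treats same-numbered libraries as pairs although the labels state no pairing, gave 2 members higher by adding Txnip. It changed no other call among the members. Of all tested genes, 14.2% then passed, and 47 had an adjusted p under 0.05. The median log2 fold change of 0.14 became 0.0911 without the filter, which also tested more genes, 0.101 with a common sum, 0.0377 with quantile normalization and 0.0619 with median centring, while the median of all tested genes became 0.02, 0.06, 0.01 and 0.01. Leaving out 1 library at a time gave 0 to 7 members higher and 0 to 1 lower, and a median of 0.0709 to 0.133. In these fits 3.16% to 15.6% of all tested genes passed in either direction, and the median of all tested genes was 0.0558 to 0.130. At a fold over 1.5 the member counts were 0 to 2 higher and 0 to 1 lower. The share of all tested genes at that limit is not given for these fits, so these counts cannot be read against a background either. The 7 came without control library 2, where 15.6% of all tested genes passed. Over the same fits signs turned for Txndc9 (-0.188 to 0.0338, positive without control library 1), Gclc (-0.0922 to 0.33, negative without control library 2), Gpx1 (-0.0712 to 0.333, negative without control library 3, at -0.0039, and aminophylline library 2) and Prdx4 (-0.0424 to 0.433, negative without aminophylline library 1). With 3 libraries a group and 14112341 reads in the shallowest, members below the filter were tested only in the fit without it.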
